A study of Mus musculus with 2 samples.

Results

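The opioid system of the ventrolateral periaqueductal gray (vlPAG) was described through 7 genes of 55450 measured, chosen by name with earlier results of these data known. They are the receptors Oprm1 (mu), Oprd1 (delta), Oprk1 (kappa) and Oprl1 (the nociceptin receptor) and the peptide precursors Penk (proenkephalin), Pdyn (prodynorphin) and Pnoc (pronociceptin). Droplet-based single-nucleus RNA sequencing had been done in C57/BL6J wild-type (WT) mice that were 8 weeks old when the diets began and then received a normal food diet (NFD) or a high-fat diet (HFD) for 7 weeks. Each diet is 1 library made from the pooled vlPAG of 18 mice, so neither a single mouse nor the spread between mice can be seen, and no comparison between the diets has a replicate. All values below are sums of unique molecular identifiers (UMIs, 1 per captured RNA molecule) over the nuclei of a cell group.

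Nuclei with over 500 UMIs and a mitochondrial share below 20% were kept. They numbered 7500 in NFD, with a median of 4504.5 UMIs, and 6322 in HFD, with a median of 7347.5. The libraries shared 13 barcodes, 12 of them among the nuclei kept. The nuclei fell into 23 clusters, of which 3 stayed unnamed, and every cell type name below means "X-like" by its markers. The GABAergic group held 2337 NFD and 2075 HFD nuclei, and the glutamatergic group held 1842 and 1476. All 4 GABAergic markers were above the level in the other nuclei in both libraries, whereas of the 3 glutamatergic markers 2 were above it in NFD and 1 in HFD, so that the glutamatergic name rests on the ratio of the transmitter markers. A transmitter name needed a ratio of 2 or more between the summed GABAergic and glutamatergic transmitter markers. Cluster 1 (Fign, Foxp2, Sox2ot, Ebf2) held 166 GABAergic against 112 glutamatergic marker UMIs per 1000000, short of that ratio, and is called mixed. Cluster 4, called GABAergic, held 247 against 117, little above it. The serotonergic group (264 and 167 nuclei) and the dopaminergic group (228 and 126) were 1 cluster each. Of their markers, 6 of 6 serotonergic and 5 of 6 dopaminergic ones were above the level in the other nuclei in both libraries. Of the unnamed clusters, cluster 5 (Gabra6, Etv1, Il16, Fat2) held 10 NFD and 814 HFD nuclei, cluster 21 (Gldc, Chst9, Kit, Megf10) 8 and 61, and cluster 9 (Aldoc, Mt1, Sparc, Dbi) 349 and 115, so the makeup of the libraries differed.

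Opioid receptors couple to inhibitory Gi/o proteins. When activated they open inward-rectifier potassium (GIRK) channels, lower calcium entry and cyclic AMP, and quiet the neuron or its terminals. In the vlPAG, opioids are known to relieve pain, in part by silencing GABAergic neurons that hold back descending output. The peptides are cut from longer precursors by convertases and are ended by peptidases.

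The 3 precursors differ in how often they carry the opioid core, the amino acids Tyr-Gly-Gly-Phe with which enkephalins and dynorphins begin. In the GENCODE M21 annotation of GRCm38, the coding sequence of Penk (268 codons) held codons for this core in frame 7 times, more than any other gene. The coding sequence of Pdyn (248 codons) held it 3 times. That of Pnoc (212 codons) held it 0 times and instead had 1 Phe-Gly-Gly-Phe, the start of nociceptin, the ligand that Oprl1 binds. Of 21584 coding genes, 0.329% held the first core on the coding strand and 0.496% the second. These stretches are shown because they tell the ligands of the classical receptors from that of Oprl1, with the 12 core bases in capitals. All lie on the minus strand, Penk copy 1 at chr4:4134328-4134354, copy 6 (Leu-enkephalin) at chr4:4133935-4133961 and copy 7 at chr4:4133842-4133868, Pdyn copy 1 at chr2:129688232-129688258 and the Pnoc copy at chr14:65404872-65404898.
Penk copy 1: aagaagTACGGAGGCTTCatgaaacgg
Penk copy 6: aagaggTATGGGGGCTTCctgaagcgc
Penk copy 7: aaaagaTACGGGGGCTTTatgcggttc
Pdyn copy 1: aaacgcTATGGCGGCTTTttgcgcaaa
Pnoc copy 1: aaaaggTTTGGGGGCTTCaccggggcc

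All 7 genes were found in both libraries, mostly as single molecules. Oprm1 gave 3378 UMIs in NFD and 3856 in HFD, Penk 1529 and 1701, Oprk1 1022 and 1231, Pnoc 828 and 916, and Oprl1 731 and 886. Oprd1 (162 and 175 UMIs) and Pdyn (28 and 53) were close to the limit of what this depth can describe. Among nuclei with a given gene, the share that held exactly 1 UMI ran from 50.6% (Oprm1, HFD) to 89.9% (Oprl1, NFD), and the richest nucleus held 23 UMIs, of Penk in HFD. Neurons (the GABAergic, glutamatergic, mixed, serotonergic and dopaminergic groups) held 91.9% of all UMIs in NFD and 89.5% in HFD. They held between 94.2% and 99.4% of the UMIs of each gene but Pdyn, for which the shares were 85.7% and 66.0%. Levels are given below in UMIs per 1000000 UMIs of the group (CPM), with exact 95% Poisson intervals. These and all other intervals cover counting error only, not the variation between nuclei, mice or libraries. Counts near the 3' end of an RNA do not allow the level of 1 gene to be set against that of another, so each gene is compared with itself across groups.

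**Figure D1:**
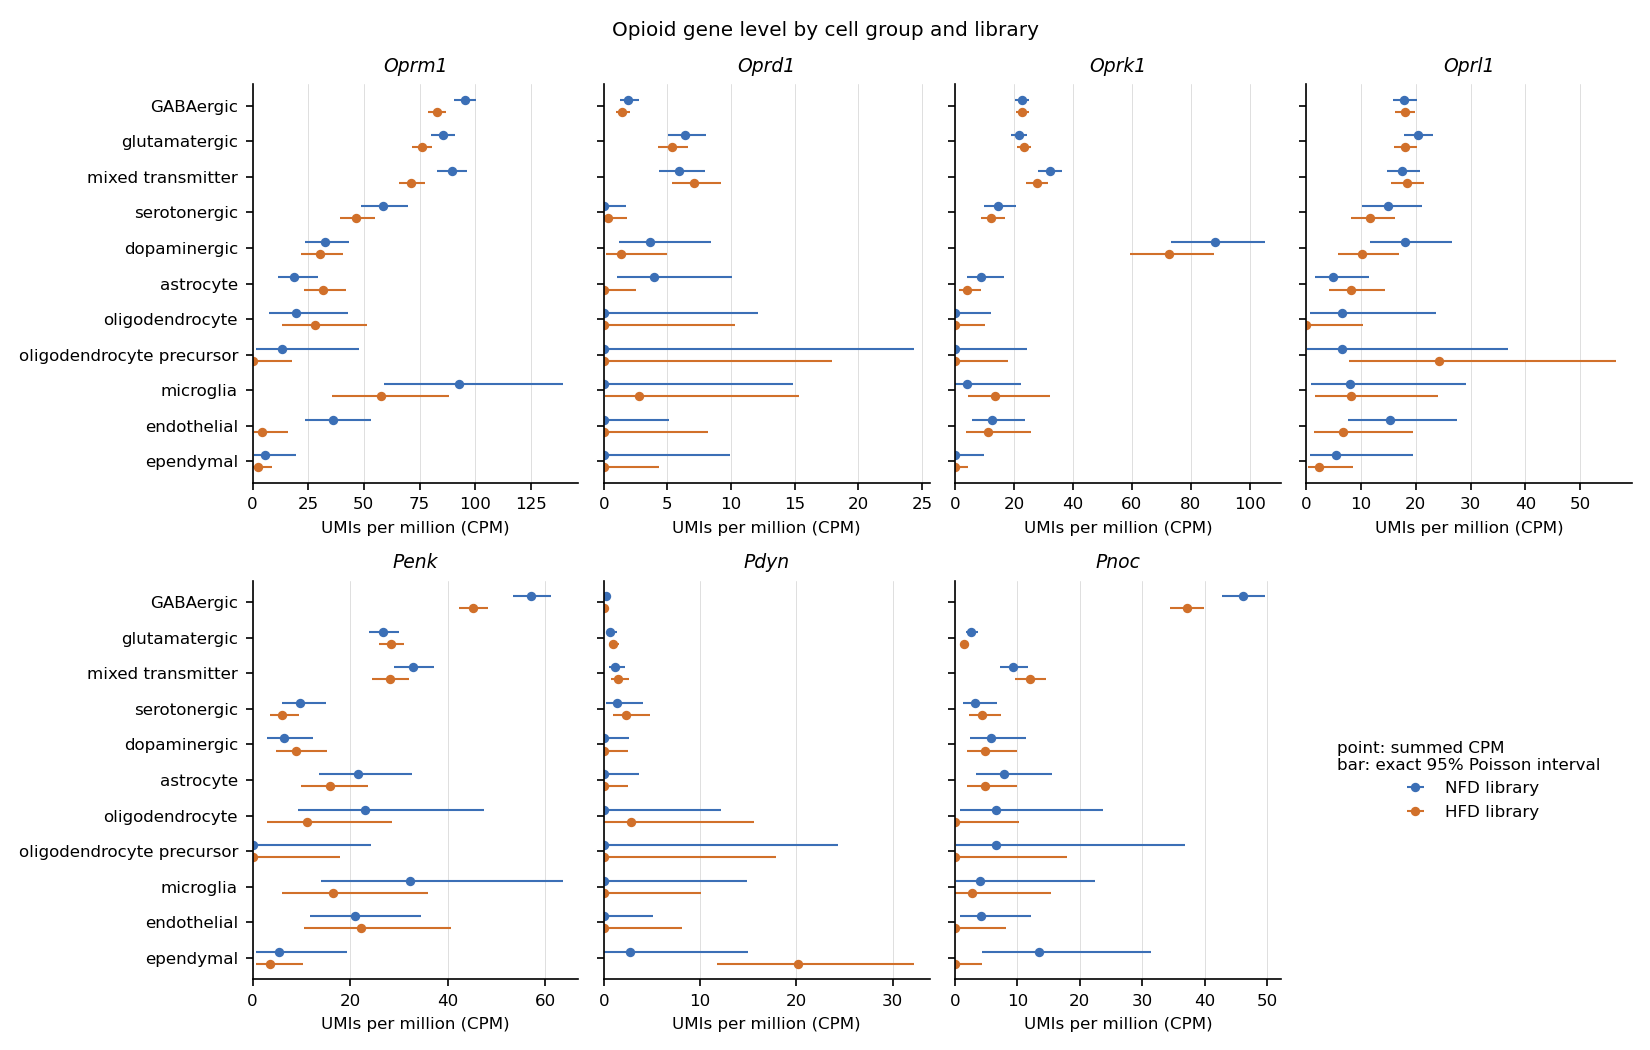
Level of each opioid gene (CPM) by cell class in the NFD and HFD libraries, with points for the level and bars for the exact 95% Poisson interval. Pnoc stood highest in GABAergic neurons, Oprk1 in dopaminergic neurons, and Oprm1 lay between 76.0 and 95.4 CPM in both large neuron groups.

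Oprm1 (ENSMUSG00000000766, chr10:6758506-7038198, plus strand), the receptor of morphine and most opioid analgesics, was spread over GABAergic and glutamatergic neurons alike. Its level in GABAergic neurons was 95.4 CPM in NFD (90.5 to 101) and 82.9 CPM in HFD (79.0 to 87.0). In glutamatergic neurons it was 85.4 CPM (80.2 to 90.9) and 76.0 CPM (71.8 to 80.4). The GABAergic level stood above the glutamatergic level in both libraries, by 1.12-fold and 1.09-fold, and this order turned when each nucleus was thinned to 2000 UMIs (log2 ratio -0.032 as the mean of both libraries). Mixed neurons held 89.4 and 71.4 CPM, serotonergic neurons 58.5 and 46.6 CPM, and dopaminergic neurons 32.5 and 30.1 CPM. The serotonergic and dopaminergic levels were thus below both large neuron groups in each library, with intervals that did not overlap theirs. Genes on the other strand (Gm10945 and Ipcef1) overlap Oprm1, and no source used here gives the strand setting of the counting.

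Oprm1 was also read in non-neuronal groups, where free RNA in the droplets can give UMIs. Microglia held 92.9 CPM in NFD (23 UMIs, 58.9 to 139) and 57.7 CPM in HFD (21 UMIs, 35.7 to 88.3), which is 107% and 77.0% of the neuronal level. The 7 reference genes of neurons (Snap25, Rbfox3, Syt1, Stmn2, Meg3, Slc17a6 and Gad2) stood in the same microglia at 12.5% (Gad2) to 23.7% (Rbfox3) of their neuronal level in NFD and at 24.5% (Gad2) to 63.5% (Rbfox3) in HFD, and in ependymal cells Oprm1 was down to 5.39 and 2.37 CPM (2 UMIs each). Oprm1 in microglia thus measured nearer to its neuronal level than these genes did, but its HFD interval also covers the share of Rbfox3. Of the other opioid genes in microglia, Penk stood at 84.5% and 49.2% of its neuronal level and Oprl1 at 43.9% and 47.3%. Oprk1 stood at 15.4% and 55.7% and Pnoc at 19.1% and 14.9%, each of these from 1 to 8 UMIs. The part of free RNA or of RNA from neurons caught in the same droplet was not tested. Endothelial nuclei held 36.3 CPM in NFD (26 UMIs) and 4.43 CPM in HFD (2 UMIs). Of the 2 astrocyte clusters, cluster 19 held 54.7 and 55.5 CPM. Doublet scores in the top 6% were given to 76.1% and 34.2% of its nuclei, and whether its Oprm1 came from doublets was not tested.

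Within the neuron classes Oprm1 ranged widely. GABAergic nuclei with a UMI of Slc32a1, Gad1 or Gad2 fell into 9 subclusters and glutamatergic nuclei with a UMI of Slc17a6, Slc17a7 or Slc17a8 into 5, with the opioid genes left out of the clustering genes. Subcluster GABA-8 (Cdh23, Sntg2, Gli3, Pax2) held 220 CPM in NFD (189 to 255) and 205 CPM in HFD (178 to 236). This was the highest level of Oprm1 among the 14 subclusters in both libraries, though its interval met that of the next subcluster in each. Glut-4 (Sox2ot, Lhx4, Sox5, Nfib) followed in HFD with 165 CPM and held 151 CPM in NFD, where GABA-9 (Vmn1r209, Vmn1r207-ps, Nox4, Vmn1r206) had 157 CPM and could not be told from it. GABA-9 held 134 CPM in HFD, and GABA-7 (Reln, St18, Arpp21, Galnt14) held 135 and 123 CPM. At the other end were Glut-3 (Otx2os1, Arhgap15, Nts, Gm31592) with 42.03 and 38.8 CPM and Glut-5 (Spx, Prdm6, Adra1a, Nr4a2) with 20.4 and 11.2 CPM. The intervals of Glut-5 lay below those of all GABAergic subclusters in both libraries. Of the Glut-5 nuclei 98.6% were in cluster 17, whose top 10 genes include Chat and Slc5a7, genes of cholinergic neurons.

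Oprd1 (ENSMUSG00000050511, chr4:132110726-132144486, minus strand), the delta receptor that enkephalins bind, was sparse and lay on the glutamatergic side. Its level in GABAergic neurons was 1.90 CPM in NFD (28 UMIs, 1.26 to 2.75) and 1.41 CPM in HFD (29 UMIs, 0.946 to 2.03). Glutamatergic neurons held 6.41 CPM (75 UMIs, 5.04 to 8.04) and 5.36 CPM (85 UMIs, 4.28 to 6.62). The 2 groups did not overlap in either library, with log2 ratios of GABAergic to glutamatergic level of -1.75 (-2.44 to -1.11) and -1.92 (-2.58 to -1.30). Mixed neurons held 5.94 and 7.10 CPM, close to the glutamatergic level. In serotonergic neurons 0 UMIs were found in NFD, which allows up to 1.40 CPM, and 1 UMI in HFD.

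Oprk1 (ENSMUSG00000025905, chr1:5588466-5606131, plus strand), the receptor of dynorphins, was highest in dopaminergic neurons (cluster 14, led by Vip, Lmx1a, Ttc6 and 9030622O22Rik). There it reached 88.1 CPM in NFD (73.2 to 105) and 72.6 CPM in HFD (59.4 to 87.8). GABAergic neurons held 22.7 CPM (20.3 to 25.2) and 22.9 CPM (20.8 to 25.0), and glutamatergic neurons held 21.6 CPM and 23.4 CPM. The dopaminergic group thus stood apart from both classes as wholes, whereas the GABAergic and glutamatergic levels overlapped in both libraries. Within the glutamatergic class cluster 13 held 68.7 CPM (66 UMIs) and 64.7 CPM (103 UMIs), with intervals that overlapped the dopaminergic ones. Mixed neurons held 32.1 and 27.7 CPM and serotonergic neurons 14.5 and 12.4 CPM, below the GABAergic level in HFD and overlapping it narrowly in NFD. No Oprk1 UMI was found in ependymal cells, oligodendrocytes or oligodendrocyte precursors of either library, which for ependymal cells allows up to 8.08 CPM in NFD and 3.55 CPM in HFD.

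By subcluster, Oprk1 and Oprm1 shared some groups and parted in others. Glut-4, rich in Oprm1, was also the highest subcluster for Oprk1 in NFD, with 77.7 CPM (55.3 to 106), and held 59.0 CPM in HFD (45.6 to 75.1). GABA-3 (9030622O22Rik, Foxp2, Cobll1, Calcr) held 47.3 and 54.1 CPM, and the intervals of GABA-3 and Glut-4 overlapped in both libraries. Glut-3, poor in Oprm1, held 31.5 and 44.5 CPM of Oprk1. GABA-8, the subcluster richest in Oprm1, held 8.61 and 5.08 CPM from 7 and 5 UMIs. GABA-9 gave 1 and 5 UMIs. The receptor pattern of GABA-8 was therefore high for Oprm1 and low for Oprk1 in both libraries.

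Oprl1 (ENSMUSG00000027584, chr2:181715016-181720985, plus strand), the receptor of nociceptin, varied least between the neuron classes. GABAergic neurons held 17.9 CPM in NFD (15.8 to 20.1) and 18.0 CPM in HFD (16.2 to 19.9). Glutamatergic neurons held 20.3 and 18.0 CPM, mixed neurons 17.6 and 18.3 CPM, serotonergic neurons 14.96 and 11.7 CPM and dopaminergic neurons 18.1 and 10.3 CPM. All 5 neuron groups overlapped in NFD. In HFD, Oprl1 was lower in serotonergic neurons than in the other neurons (log2 ratio -0.60, -1.14 to -0.12). Oprl1 was also lower in the dopaminergic neurons of HFD than in the other neurons (-0.78, -1.63 to -0.05). Its levels by subcluster ran from 6.12 CPM (GABA-9, 3 UMIs) to 27.3 CPM (Glut-3, 26 UMIs) in NFD and from 10.2 CPM (GABA-5, led by Nr4a2, Gm12068, B020031H02Rik and Adam12) to 26.6 CPM (GABA-7) in HFD. The subclusters at either end were not the same in the 2 libraries.

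Penk (ENSMUSG00000045573, chr4:4133531-4138819, minus strand), the source of enkephalins, was higher in GABAergic than in glutamatergic neurons. The GABAergic level was 57.2 CPM in NFD (53.4 to 61.1) and 45.3 CPM in HFD (42.4 to 48.3), against a glutamatergic level of 26.8 CPM (24.0 to 29.98) and 28.4 CPM (25.9 to 31.2). GABAergic neurons held 55.1% and 54.6% of all Penk UMIs, and 35.9% and 37.6% of all UMIs. Mixed neurons held 32.9 and 28.2 CPM. Serotonergic neurons, with 9.82 and 6.03 CPM, and dopaminergic neurons, with 6.50 and 8.90 CPM, were below all 3 of these groups in both libraries. The noncoding gene A830012C17Rik overlaps Penk on the other strand.

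Much of the Penk of the GABAergic class came from 1 cluster, cluster 4, which held markers of both transmitters. Of its 399 NFD and 520 HFD Penk UMIs, 41 and 61 were in nuclei with a GABAergic marker UMI alone. Another 187 and 248 were in nuclei with a glutamatergic marker UMI alone, and the rest in nuclei with both or neither. Cluster 4 (Rnf220, Palld, Pax8; 502 NFD and 517 HFD nuclei) held 140 CPM and 113 CPM, and 26.1% and 30.6% of all Penk UMIs with 7.0% and 8.4% of all UMIs. Without it, the GABAergic level was 37.3 CPM in NFD, still above the glutamatergic 26.8 CPM (log2 ratio 0.47, 0.26 to 0.69), and 25.7 CPM in HFD, which was not above the glutamatergic 28.4 CPM (-0.15, -0.34 to 0.05). Outside cluster 4 Penk thus measured higher in GABAergic neurons in NFD and not in HFD. Whether the libraries differed in this ratio was not tested. By subcluster, GABA-9 held 182 CPM in NFD (146 to 223) and 96.9 CPM in HFD (68.2 to 134). GABA-4 (Cacna2d1, Rnf220, Slc17a6, Sim1) held 117 and 118 CPM. GABA-4 is led in part by the vesicular glutamate transporter gene Slc17a6, which goes against a GABAergic name. GABA-8, the subcluster richest in Oprm1, held 7.38 and 8.13 CPM of Penk from 6 and 8 UMIs.

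**Figure D2:**
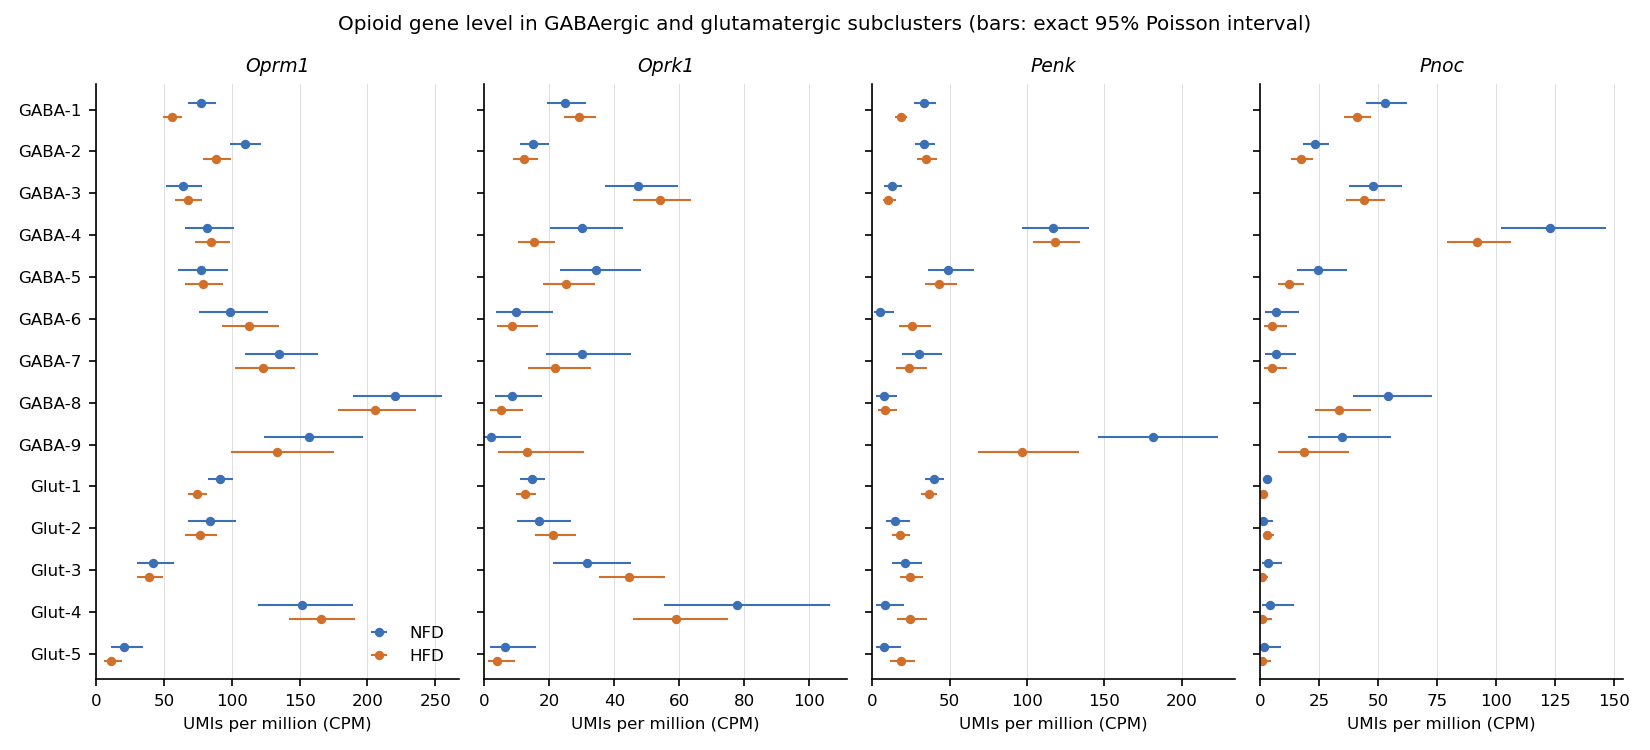
Levels of the opioid genes (CPM, bars for exact 95% Poisson intervals) in the GABAergic and glutamatergic subclusters of both libraries. GABA-8 was high for Oprm1 (220 and 205 CPM) and low for Penk (7.38 and 8.13 CPM), whereas GABA-9 and GABA-4 were high for Penk.

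Pdyn (ENSMUSG00000027400, chr2:129686565-129699844, minus strand), the source of dynorphins, was nearly absent from GABAergic neurons at this depth, with 4 UMIs in NFD and 1 in HFD. Glutamatergic neurons gave 8 and 15 UMIs (0.684 and 0.945 CPM), most of them in cluster 17 (Spx, Prdm6, Meis2, Pde11a), which held 6 and 14 UMIs, or 5.09 and 7.04 CPM. The top 10 genes of cluster 17 also include the cholinergic genes Chat and Slc5a7. Cholinergic markers were not used for naming, so its glutamatergic name rests on the transmitter ratio alone. Mixed neurons gave 9 and 12 UMIs and serotonergic neurons 3 and 7. Ependymal cells gave 1 UMI in NFD and 17 in HFD (20.1 CPM, 11.7 to 32.2). The 17 UMIs came from 8 of 173 nuclei, and 6 of them from a single nucleus, so this level rests on few cells.

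Pnoc (ENSMUSG00000045731, chr14:65400673-65425472, minus strand), the source of nociceptin, was found mostly in the GABAergic class. They held 46.1 CPM in NFD (42.7 to 49.7) and 37.1 CPM in HFD (34.5 to 39.8), and 82.0% and 83.1% of all Pnoc UMIs. These shares include cluster 4 with 32.7% and 33.4%, a cluster that held markers of both transmitters. Glutamatergic neurons held 2.65 CPM (31 UMIs) and 1.45 CPM (23 UMIs), which makes the GABAergic level 17.4-fold and 25.6-fold the glutamatergic one. The groups were far apart in both libraries, and without cluster 4 the ratio was still 12.96-fold and 19.7-fold. Mixed neurons stood between them with 9.29 and 11.96 CPM. Within the GABAergic class GABA-4 held 123 and 92.0 CPM, GABA-1 (Six3, Six3os1, Col23a1, Zfp804a) 53.1 and 40.9 CPM, GABA-8 54.1 and 33.5 CPM, and GABA-3 48.0 and 44.1 CPM. GABA-6 (Npsr1, Palld, Otp, Ebf2) held 6.48 and 4.80 CPM and GABA-7 held 6.55 and 4.92 CPM, from 4 or 5 UMIs each. These 2 subclusters were thus poor in Pnoc while their Oprm1 was 98.8 and 112 CPM (GABA-6) and 135 and 123 CPM (GABA-7).

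In the comparison of GABAergic with glutamatergic neurons, a gene was called where its counting interval lay wholly beyond 0.32 on the log2 scale (a level 25% higher, or the same ratio lower) in the same direction in both libraries and it had at least 100 UMIs. Of the 6 opioid genes tested (Pdyn was too sparse), Penk and Pnoc were called higher and Oprd1 lower in GABAergic neurons, whereas 5.78% of 14361 genes were called either way, 2.47% of them higher and 3.31% lower. Penk was no longer called without cluster 4, and equally not with 30 principal components, with a 3-fold transmitter threshold or when only nuclei with a transmitter UMI were taken. Oprm1, Oprk1 and Oprl1 were not called.

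Cluster 4 held markers of both transmitters, and its nuclei were split by the transmitter UMIs they contained. Those with a UMI of a glutamatergic marker and none of a GABAergic one (116 in NFD, 134 in HFD) held 248 and 198 CPM of Penk, those with a GABAergic UMI alone (190 and 200) 41.7 and 37.7 CPM. The log2 ratio between them was 2.57 in NFD (2.08 to 3.10) and 2.39 in HFD (1.98 to 2.82). Pnoc differed in the same direction, with 130 and 77.5 CPM against 64.1 and 28.5 CPM, a log2 ratio of 1.02 (0.55 to 1.5) and 1.45 (0.93 to 1.99). Oprm1 went the other way, with 45.2 and 71.9 CPM against 99.7 and 97.1 CPM (-1.14, -1.75 to -0.57, and -0.43, -0.82 to -0.05). Nuclei with UMIs of both transmitters held 138 and 137 CPM of Penk, and those with neither 167 and 69.1 CPM, both below the nuclei with a glutamatergic UMI alone. For Pnoc the nuclei with both held 106 CPM in NFD, an interval that overlapped that of the nuclei with a glutamatergic UMI alone, and in HFD the nuclei with both were higher, with 106.6 CPM against 77.5 CPM and overlapping intervals. Of the nuclei with 10 or more Penk UMIs, 9 of 13 in NFD and 16 of 24 in HFD were in cluster 4. Cluster 4 also held most nuclei of GABA-4 and GABA-6, whose Penk levels differed, and their part in these ratios was not tested. The split was made after the values of the cluster had been seen.

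**Figure D3:**
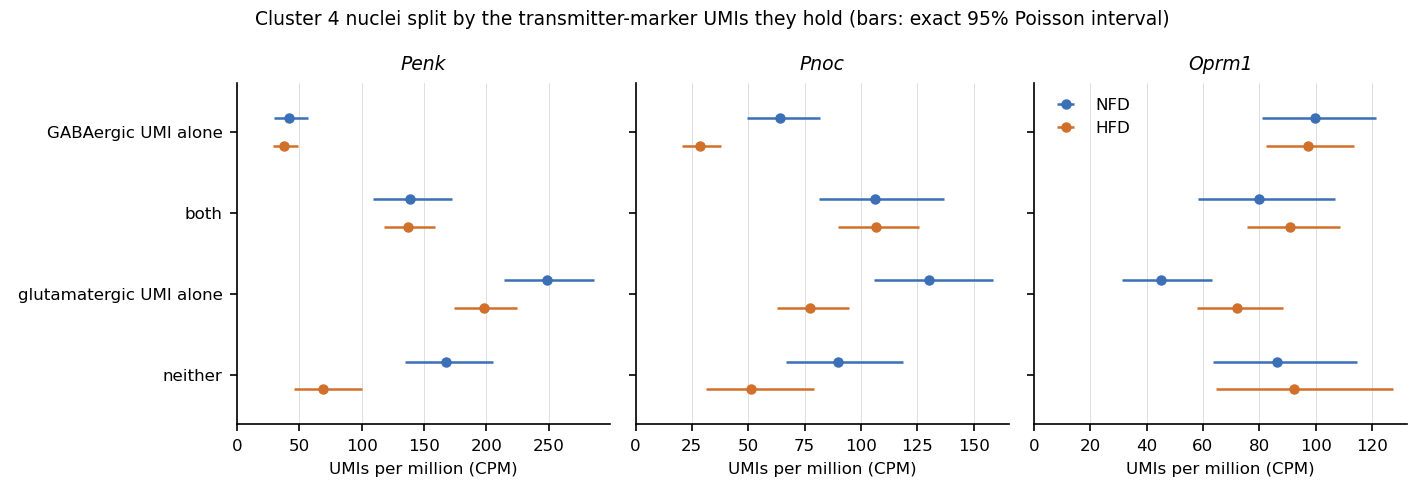
Levels (CPM, bars for exact 95% Poisson intervals) of Penk, Pnoc and Oprm1 in cluster 4, split by the transmitter markers found in each nucleus. Penk was 41.7 and 37.7 CPM with a GABAergic UMI alone and 248 and 198 CPM with a glutamatergic UMI alone, and Oprm1 was lower in the latter.

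Penk and Pnoc were also found in the same nuclei of this cluster. After thinning each nucleus to 2000 UMIs, 26.6% of cluster 4 nuclei with Penk in NFD also held Pnoc (exact interval 17.3 to 37.7), against 12.3% of those without Penk (9.31 to 15.9). In HFD the shares were 27.3% (17.03 to 39.6) and 9.13% (6.63 to 12.2), so the intervals did not overlap in either library. Cluster 4 held 91.5% of GABA-4 and 96.9% of GABA-6 nuclei. GABA-4 was rich in Penk (117 and 118 CPM) and in Pnoc (123 and 92.0 CPM). GABA-6 gave 3 and 27 Penk UMIs and was poor in Pnoc. Whether the 2 genes occur together within a subcluster was not tested. In GABAergic nuclei outside cluster 4 the shares were 5.08% against 5.82% in NFD and 8.00% against 4.73% in HFD, with overlapping intervals. Among all GABAergic nuclei, Oprm1 was found in 12.2% of NFD nuclei with Penk and 13.9% of those without, and in 14.9% and 12.9% in HFD, with overlapping intervals in both libraries.

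The patterns over cell groups were set against those of other genes by Pearson's r of log2(CPM + 10) over 42 points (21 clusters in each of 2 libraries), as a description. The points share libraries and differ in depth. Among 11584 genes, the most alike to Oprm1 were B230303A05Rik (0.90), Bend6 (0.89) and Slc39a2 (0.89). Oprk1 was most like Gzmk (0.85), Gm33533 (0.82) and Chrm3 (0.82), and Oprl1 most like Cdh12 (0.86), Rnf165 (0.86) and Zfp2 (0.85). Penk came closest to Lamp5 (0.77), Plvap (0.77) and Fam171a2 (0.76), and Pnoc to Lhx1os (0.78), Lhx1 (0.78) and Pax8 (0.74). Between the opioid genes r was 0.66 for Oprm1 and Oprk1, 0.63 for Oprm1 and Penk, 0.51 for Penk and Pnoc and 0.25 for Oprm1 and Pnoc. Oprd1 and Pdyn had too few UMIs for a pattern.

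HFD and NFD were then compared gene by gene, as 2 libraries and not as 2 diets, since each diet has 1 library. A ratio was called where its exact conditional 95% interval lay wholly beyond the same 0.32 on the log2 scale, for genes with at least 100 UMIs. Over all nuclei, the NFD and HFD levels of Oprm1 were 82.3 and 70.6 CPM, Penk 37.3 and 31.2 CPM, and Pnoc 20.2 and 16.8 CPM. These are log2 ratios of -0.22 (-0.29 to -0.15), -0.26 (-0.36 to -0.16) and -0.27 (-0.40 to -0.13). Oprk1 was 24.9 and 22.6 CPM (-0.14), Oprl1 17.8 and 16.2 CPM (-0.13) and Oprd1 3.95 and 3.21 CPM (-0.30). Of these 6 genes 0 were called, beside 4.87% of 16345 genes (1.72% higher and 3.15% lower in HFD), and 4 of them had an interval wholly below 0, as had 27.7% of all genes. In neurons alone the levels were 86.7 and 75.0 CPM for Oprm1, 38.2 and 33.5 CPM for Penk and 21.1 and 18.4 CPM for Pnoc. The HFD values were thus lower in neurons alone as well. The makeup of the neurons also differed, with mixed neurons 17.1% of NFD and 9.35% of HFD nuclei, and its part was not tested.

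Within GABAergic neurons Oprm1 and the 2 abundant precursors measured lower in HFD, and Oprk1 and Oprl1 had class ratios close to 0. For Penk, the NFD level of 57.2 CPM and the HFD level of 45.3 CPM gave -0.34 (-0.47 to -0.20). Pnoc was 46.1 and 37.1 CPM (-0.31, -0.47 to -0.16), and Oprm1 95.4 and 82.9 CPM (-0.20, -0.31 to -0.10). The 3 intervals lay below 0 but not wholly past the limit. Oprd1 (-0.43, -1.23 to 0.37) had too few UMIs to be tested. Oprk1 (0.01, -0.19 to 0.22) and Oprl1 (0.01, -0.22 to 0.24) had intervals that reach about the same distance to either side of 0, which does not show that they were equal. Within the class Oprk1 measured lower in HFD in cluster 4 (20.7 and 11.7 CPM, -0.82, -1.38 to -0.26), and after thinning the class ratio of Oprk1 was -0.28. Of the 5 opioid genes tested, 0 were called, beside 2.32% of 12808 genes in GABAergic neurons (0.531% higher and 1.79% lower in HFD). An interval wholly below 0 was found for 21.5% of those genes, and the median of all of them was -0.05. At a limit of 1.5-fold 0.32% of those genes were called and 0 of the opioid genes. Outside cluster 4, a set chosen after seeing the data, the log2 ratio of Penk was -0.54 (-0.74 to -0.34), which is past the limit. The share of all genes past the limit was not computed for that set, so Penk is not counted as called. The lower HFD level was thus also seen without that cluster. Most of GABA-9, with 96 NFD and 47 HFD nuclei and 89 and 37 Penk UMIs, lies outside cluster 4. The part of that makeup in the Penk ratio was not tested.

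**Figure D4:**
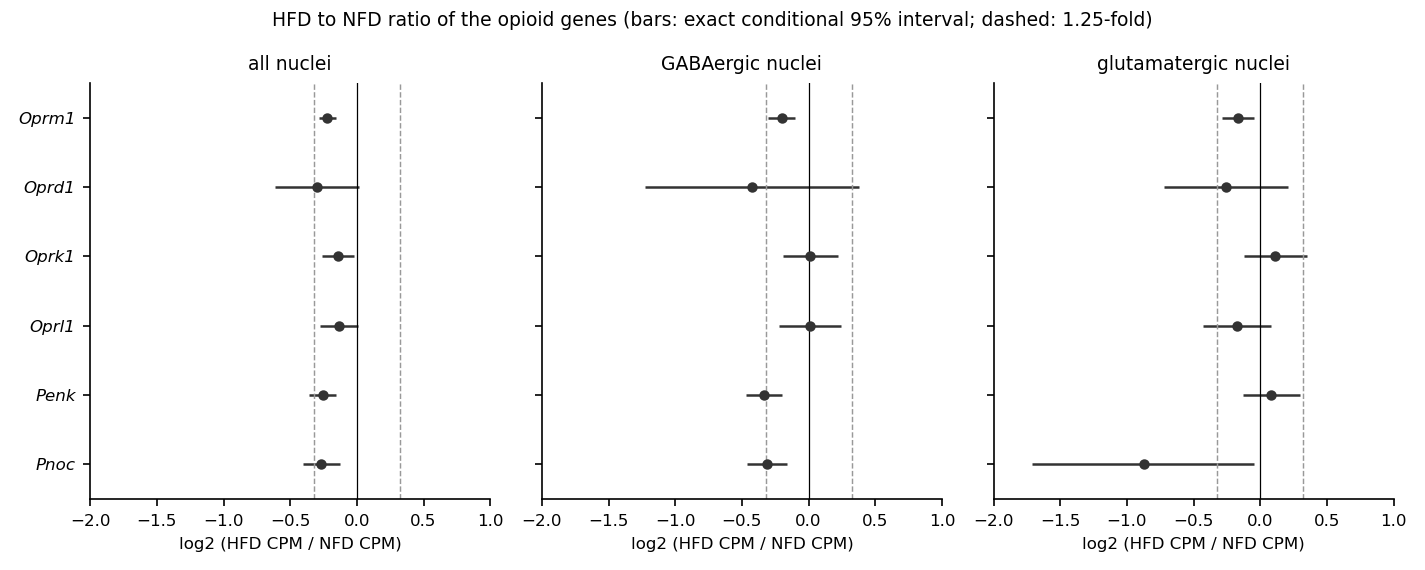
Log2 ratio of HFD to NFD CPM of each opioid gene but Pdyn in all nuclei, GABAergic and glutamatergic neurons, with bars for the exact conditional 95% interval and dashed lines at 0.32 to either side of 0. Penk, Pnoc and Oprm1 lay below 0 in GABAergic neurons, with no interval wholly past the dashed lines there.

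In glutamatergic neurons the Penk levels were 26.8 and 28.4 CPM (log2 ratio 0.08, -0.13 to 0.30), and Oprk1 was 21.6 and 23.4 CPM (0.11, -0.12 to 0.35). Oprm1 was 85.4 and 76.0 CPM (-0.17, -0.29 to -0.05). Of the 5 opioid genes tested there, 0 were called, beside 2.62% of 12137 genes (0.552% higher and 2.07% lower in HFD), and Oprm1 alone had an interval below 0, as did 20.7% of genes. Whether the Penk ratio differed between GABAergic and glutamatergic neurons was not tested. The Oprk1 of dopaminergic neurons, 88.1 CPM in NFD against 72.6 CPM in HFD, had a ratio of -0.28 on the log2 scale (-0.67 to 0.11) from 122 and 106 UMIs.

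Shares of nuclei with a UMI depend on depth, which was higher in HFD, so each nucleus was thinned to 2000 UMIs. Of thinned GABAergic nuclei, 8.59% held Penk in NFD and 6.81% in HFD, a difference of -1.78 percentage points (-3.39 to -0.16). Unthinned, the shares were 16.0% and 18.3%, in the opposite order. Pnoc was found in 7.67% and 6.52% of thinned nuclei, Oprm1 in 13.8% and 12.995%, Oprk1 in 4.53% and 3.91% and Oprl1 in 3.66% and 3.48%, each with an interval of the difference that included 0. In full nuclei the shares were 29.3% and 36.1% for Oprm1, 19.0% and 21.8% for Pnoc, 11.6% and 15.8% for Oprk1, and 9.88% and 15.7% for Oprl1. For background, Oprm1 was found in 4.50% of 111 NFD and 1.72% of 58 HFD thinned endothelial nuclei and in 8.33% of 12 and 14.7% of 34 thinned microglia. Penk and Oprk1 were each found in 2.70% and 5.17% of the endothelial nuclei and Pnoc in 1.80% and 0%, and Oprl1 in 16.7% of the 12 NFD microglia. Median depths before thinning were 5482 and 8708 UMIs in GABAergic neurons, 1558.5 and 2596.5 in endothelial nuclei and 925.5 and 1400 in microglia. In HFD the GABAergic share of Oprm1 was not above the microglial one and that of Oprk1 not above the endothelial one, in NFD that of Oprl1 was not above the microglial one, and the HFD share of Penk lay within the wide endothelial interval (1.08 to 14.4), so these shares on their own cannot be told from background.

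The wider pathway was described through 74 genes in 8 lists of opioid peptide handling and receptor signalling. Of the 64 with at least 100 UMIs in GABAergic neurons, 34 stood above 0 and 30 below it in HFD, with a median log2 ratio of 0.02. Of all 12808 genes tested there, 5193 stood above 0 and 7615 below it, with a median of -0.05. The convertase gene Pcsk1, whose enzyme makes the first cuts in peptide precursors, rose from 17.2 CPM in NFD to 27.5 CPM in HFD (log2 ratio 0.68, 0.46 to 0.89). Pcsk1n, which encodes an inhibitor of that convertase, fell from 341 to 221 CPM (-0.62, -0.68 to -0.56), and Rgs6, which encodes an accelerator of Gi/o signal shutdown, fell from 238 to 161 CPM (-0.56, -0.63 to -0.49). Thus 1 gene was called higher and 2 lower of 64, beside 0.531% and 1.79% of all genes tested in GABAergic neurons, and Pcsk1 was not called without cluster 4. Rgs6 did not measure lower everywhere, with 535 and 651 CPM in glutamatergic neurons (0.28, 0.24 to 0.33) and 0.01 over all nuclei. It was also among the top genes of GABA-9, which had 96 NFD and 47 HFD nuclei, and the part of that makeup in its ratio was not tested.

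Among the other genes of precursor processing, the protease gene Ctsl was 28.7 and 20.2 CPM (-0.51) and Scg5, which encodes a chaperone of the second convertase, 254 and 212 CPM (-0.26), neither called. Of 9 genes of opioid peptide breakdown tested, 3 stood above 0 and 6 below, and 0 were called, with Ece2 at -0.41, Mme (neprilysin, an enkephalin-degrading enzyme) at -0.32, Nln at -0.25 and Dpp3 at -0.21. The GIRK channel genes Kcnj3 (256 and 315 CPM, 0.30) and Kcnj6 (140 and 166 CPM, 0.24) had intervals above 0, Kcnj9 was at -0.29, and 0 of 3 were called. Among 11 Gi/o protein genes 0 were called, with Gng3 at -0.49, Gng2 at 0.27, Gng7 at -0.20 and Gnai1 at 0.18.

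The 8 adenylyl cyclase genes tested stood 6 above and 2 below 0, with Adcy7 at 0.37, Adcy9 at 0.30, Adcy3 at 0.20 and Adcy2 at 0.20, and 0 were called. For receptor desensitization, 4 of 7 genes stood above 0 and 0 were called, with Grk4 at -0.31, Grk5 at 0.28, Grk2 at 0.19 and Arrb1 (a beta-arrestin) at 0.18. Besides Rgs6, 0 of the RGS genes tested were called, with Rgs12 at -0.47, Rgs20 at 0.27 and Rgs9 at 0.21. Of 5 related receptors 0 were called, with Ogfr (which binds an enkephalin) at -0.51, Sstr2 at -0.48, Gpr139 at 0.20 and Ogfrl1 at 0.02. In glutamatergic neurons 65 pathway genes were tested and 1 was called higher and 2 lower, beside 0.552% and 2.07% of all genes tested there. Pcsk1n fell there from 380 to 233 CPM (-0.71, -0.77 to -0.65) and Ctsl from 20.9 to 11.6 CPM (-0.85, -1.13 to -0.56), and Gpr139, an orphan receptor gene, rose from 17.8 to 27.7 CPM (0.64, 0.40 to 0.88). Pcsk1n was thus called lower in both neuron classes. It was also called lower over all nuclei (317 and 211 CPM, -0.59, -0.62 to -0.55), as were 3.15% of all genes tested there.

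**Figure D5:**
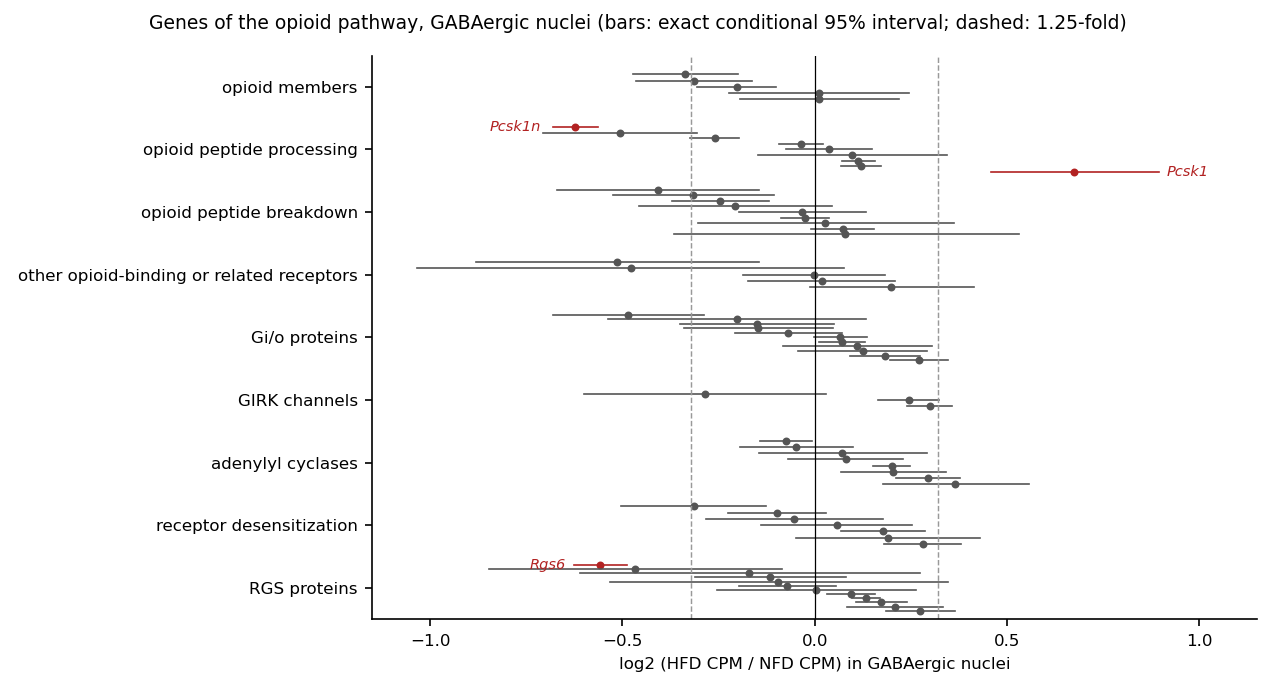
Log2 ratio of HFD to NFD CPM in GABAergic neurons for each opioid gene and pathway gene with at least 100 UMIs, grouped by list, with bars for the exact conditional 95% interval. Pcsk1 lay wholly above the upper dashed line (0.32), Pcsk1n and Rgs6 wholly below the lower, and the other genes crossed or lay within the dashed lines.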

How the data were processed

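Nuclei of pooled vlPAG were sequenced with a 10x 3' kit (V3), 1 library for each diet. The authors deposited whole-number UMI counts for each gene in each nucleus. The submitters' processing notes name bcl2fastq 5.01, Cell Ranger, Seurat 3.1.1 and GRCm38, and the header of the matrices gives Cell Ranger 4.0.0. The handling of intronic reads and of strand is not given in the sources used. The matrices hold 7625 NFD barcodes (41180006 UMIs) and 6813 HFD barcodes (55133689 UMIs), and 125 and 491 were removed by the filter.

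Counts were scaled to 10000 per nucleus and log-transformed in Seurat 5.3.0 (R 4.3.3, Matrix 1.6.5). Both libraries were clustered together without integration on 1995 of 2000 variable genes, leaving out the 5 opioid genes among them, with 20 principal components and a resolution of 0.5. Glial and monoaminergic clusters needed a mean marker log2 fold of 1 (after adding 10 CPM) and 3 markers found in 10% of nuclei. Neurons were called GABAergic or glutamatergic from a transmitter marker ratio of 2 or more. A cluster with 2 or more markers of granule-like neurons among its top 10 genes stayed unnamed, as cluster 5 did. Clusters 9 and 21 also stayed unnamed. The median depth of cluster 9 was more than 3 times below that of a library, and none of its top 10 genes was a marker of the best-matching class. Cluster 21 stayed unnamed by depth alone, with a median of 2417 UMIs in HFD against 7347.5 in that library. Its GABAergic transmitter markers stood at 570 CPM and the glutamatergic ones at 17.3 CPM. Scrublet (scanpy 1.11.5) marked 1 NFD and 0 HFD nuclei and was not used to call doublets, and the top 6% of scores were removed in an alternative.

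UMIs were summed per library and group and given with exact intervals at 95% (Poisson, conditional binomial, Clopper-Pearson). A count of 0 allows up to 3 counts. No p-value was computed, as nuclei are not replicates. Python 3.11.15, numpy 2.4.6, scipy 1.17.1, pandas 2.3.3 and matplotlib 3.10.9 were used, and the ratio step was tested on simulated data.

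The opioid genes and the pathway lists were chosen with earlier results of these data known, and the naming rule was set after the clusters were seen. Named are the 7 opioid genes, of each list up to 4 genes with the largest ratios in GABAergic neurons, the 3 genes most alike to each opioid gene in pattern, and up to 4 leading genes per group, of which 1 is not reported here. The called pathway genes of glutamatergic neurons and the neuronal reference genes were named after their values were seen. Gene positions and coding sequences are from GENCODE M21.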

Additional observations from a re-analysis of the deposited data

Results flagged for a closer look

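For Oprm1 over clusters and for Penk over subclusters, some groups had an HFD to NFD interval above 0 and others below 0, and none of these differences between groups was tested. For Oprm1, cluster 13 (Lhx4, Gm49678, Dach2, Ndst4), a glutamatergic cluster, had a log2 ratio of 0.36 (0.06 to 0.67, from 135 and 287 UMIs), with its interval above 0. The intervals of 5 other clusters lay below 0. They were the glutamatergic clusters 0 (Bnc2, Tfap2d, Gm28928, Npsr1) at -0.45 (540 and 469 UMIs) and 17 at -0.57 (53 and 60 UMIs), the mixed cluster 1 at -0.33 (693 and 573 UMIs), the GABAergic cluster 3 (Six3, Nxph1, Col23a1) at -0.53 (257 and 301 UMIs) and the endothelial cluster 15 at -3.03 (26 and 2 UMIs). Cluster 17 also had the cholinergic genes Chat and Slc5a7 among its top 10. Leaving out the richest nucleus of each library kept each interval on its side of 0.

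For Penk, GABA-6 had a log2 ratio of 2.42 (0.72 to 4.78) from 3 and 27 UMIs. These came from 3 NFD and 7 HFD nuclei, the richest with 11 UMIs, and without the richest nucleus of each library the ratio was 2.26 (0.17 to 5.42). Glut-4 had 1.60 (0.08 to 3.57) from 4 and 27 UMIs, and without the richest nuclei, of which 1 held 12 UMIs, 1.151 (-0.67 to 3.58), so that this interval then included 0. GABA-1 (-0.86, -1.29 to -0.43) and GABA-9 (-0.91, -1.50 to -0.34) lay below 0, also without the richest nuclei.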

How the results depend on the processing

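With 1 library per diet neither a library nor a replicate can be left out. No paired analysis was possible because each diet has 1 library. The alternatives without cluster 4, with cluster 21 and without shared barcodes were chosen after seeing the data. Of 94 values of the GABAergic to glutamatergic ratio under alternatives, 85 moved by less than the counting interval. The 1.5-fold transmitter threshold kept the same nuclei as the main setting, so its values could not move. A mitochondrial share under 5% and a minimum of 1000 UMIs kept 2336 and 2333 of 2337 NFD GABAergic nuclei, so they could move little. These 3 settings count among the 94 values and among the 108 below. As the mean of both libraries, the log2 ratio of Oprm1 was 0.29 with 30 principal components, 0.32 with a 3-fold transmitter threshold and 0.29 over nuclei with a transmitter UMI, and turned to -0.032 after thinning to 2000 UMIs. That of Penk was 0.31, 0.14 and 0.43 under the first 3 of these and 0.16 without cluster 4, and that of Oprk1 was 0.44 with the 3-fold threshold. The 3-fold threshold and the exclusion of cluster 4 leave the same numbers of GABAergic nuclei. The cause of the other shifts was not tested. Of 108 values of the HFD to NFD ratio in GABAergic neurons, 103 stayed within the interval. Penk moved to -0.49 with 30 principal components, to -0.54 with the 3-fold threshold and without cluster 4, and to -0.50 after thinning, and Oprk1 to -0.28 after thinning. Over all nuclei, weighting each nucleus equally gave -0.43 for Oprk1, -0.43 for Penk and -0.52 for Pnoc. At full depth the share of GABAergic nuclei with a UMI differed between HFD and NFD by 6.83 points for Oprm1, 4.25 for Oprk1, 5.83 for Oprl1, 2.79 for Pnoc and 2.26 for Penk, which turned from -1.78. With a 1.5-fold limit 0 pathway genes were called in place of 3. Depth limits Oprd1 and Pdyn most.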
